A study of Mus musculus with 20 samples.

Results

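The 10 genes described here carry the insulin signal in fat from the receptor to the glucose transporter GLUT4: the receptor Insr, its substrates Irs1 and Irs2, the kinase genes Pik3r1 and Akt2, the transporter gene Slc2a4 with its traffic gate Tbc1d4, the transcription factor gene Foxo1, and the brakes Grb10 and Ptpn1. They were taken by symbol from the 19505 named genes of an expression array, and each of the 10 genes was read by 1 probe set. The array was run on whole epididymal fat pads of 20 male C57BL/6 mice, 1 array per mouse. Cre and wt mice alike had both Tnf alleles floxed (TNF-αFlox/FLox), and Tnf encodes the cytokine TNF-α. The 10 cre mice carried LyzM-Cre in addition, heterozygous, and the 10 wt mice, all littermates, carried none (LyzMcre-/-). LyzM drives Cre in macrophages and other myeloid cells, so Tnf in fat cells and other cells of the pad is not the target of this deletion. Both groups ate chow up to 10 weeks of age and a high-fat diet, with 40% of calories from fat, for the next 18 weeks. Tissue was taken at 28 weeks. The titles put 5 cre and 5 wt mice in each of 2 batches. The genotype comparison asks whether loss of macrophage TNF-α changed these genes in obese fat.

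When insulin binds its receptor, the receptor phosphorylates the IRS proteins, which recruit phosphatidylinositol 3-kinase. That kinase makes a membrane lipid to which AKT2 is drawn, and active AKT2 phosphorylates AS160, the product of Tbc1d4, so that vesicles with GLUT4 move to the surface of the fat cell and take up glucose. AKT also keeps FOXO1 out of the nucleus. TNF-α is known to blunt this chain in cultured fat cells, and inflamed obese fat is a classic site of insulin resistance. Much of the signal runs through phosphorylation, which an RNA array does not measure.

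Signals of 22206 probe sets were deposited on the log2 scale, with array medians of 6.49 to 6.58. Tnf had a lowest, median and highest log2 signal of 3.91, 4.58 and 5.34 in cre mice, against 5.78, 6.48 and 7.80 in wt mice, with no overlap. Adgre1, the gene of a surface protein that marks mouse macrophages, spanned 10.66 to 13.91 in cre mice and 11.41 to 14.28 in wt mice, and these groups overlapped. The mean of 20 macrophage genes, Adgre1 among them, spanned 10.28 to 12.77 in cre mice and 11.62 to 13.58 in wt mice. The tissue label was borne out by the adipocyte gene Adipoq, at 19.12 ± 0.36 in cre mice and 18.73 ± 0.69 in wt mice (SD, n = 10 each). A mean of 16 adipocyte genes, none of them among the 10, was 15.81 to 16.73 in cre mice and 14.22 to 16.54 in wt mice, and wt mice 6 and 5 were the lowest. Genes of other tissues set 5 mice apart by over 1 log2 unit from the rest of their genotype: cre mouse 2 (bladder), cre mouse 3 (seminal vesicle), cre mouse 9 (erythroid), wt mouse 4 (liver and exocrine pancreas) and wt mouse 6 (seminal vesicle). The mean of 10 seminal vesicle genes was 7.12 in cre mouse 3 and 16.8 in wt mouse 6. The mean of 12 liver genes had a lowest, median and highest value of 7.05, 9.57 and 11.8 in cre mice, against 5.99, 7.63 and 13.7 in wt mice, so its median was higher in cre mice and its highest value that of wt mouse 4. The source of these transcripts was not tested. In such bulk samples, fewer cells of a type and less RNA per cell cannot be told apart.

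None of the 10 genes differed between genotypes past adjustment over all probe sets, and none reached an unadjusted p under 0.05. Of all probe sets 0.0045% passed adjustment, namely 1, and 6.29% had an unadjusted p under 0.05. Of the 10 differences, cre minus wt, 5 were positive and 5 negative, against 50.7% and 49.3% of all probe sets, with a median of -0.01 on the log2 scale, against 0.00 over all probe sets. The groups overlapped for each of the 10 genes, as the plot of single mice shows.

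**Figure D1:**
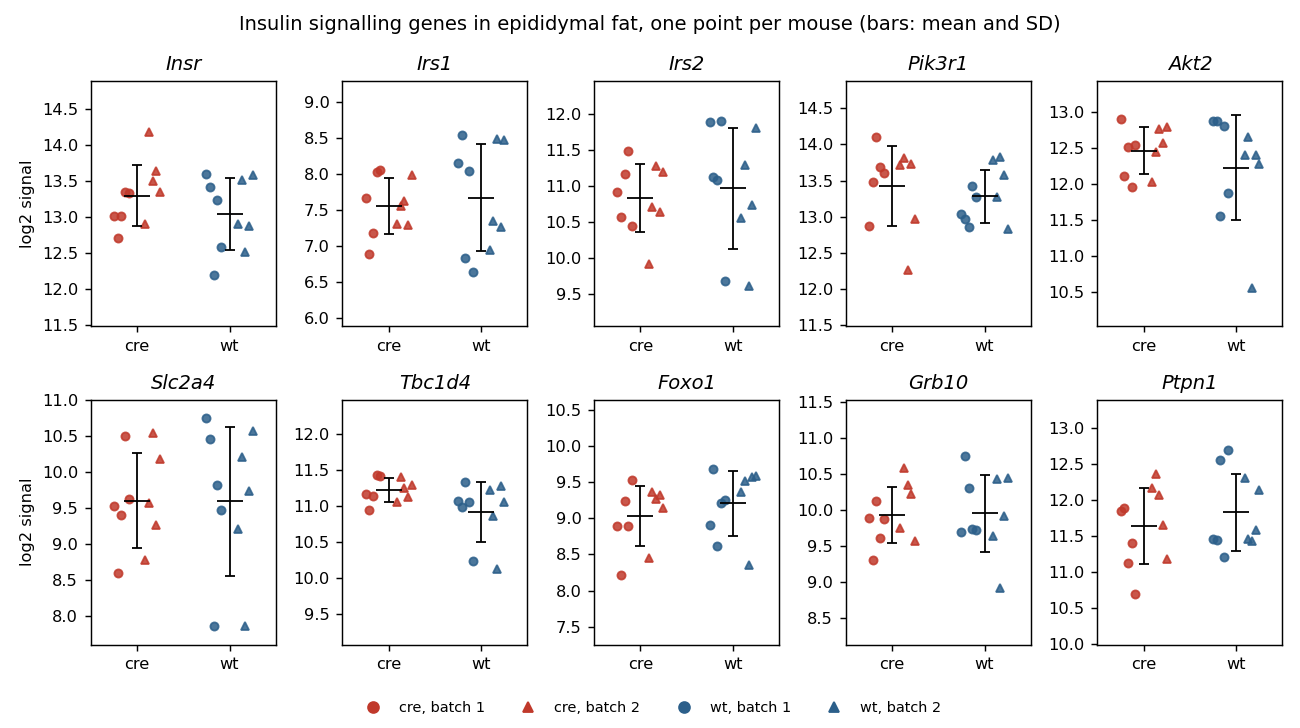
Log2 signal (y axis) of each of the 10 genes in cre and wt mice (x axis), one point per mouse, circles for batch 1 and triangles for batch 2, with black bars for mean and SD of 10 mice. All y axes span the same number of log2 units, and the groups overlap in each panel. The lowest point is a cre mouse for Pik3r1, Foxo1 and Ptpn1 and a wt mouse for the other genes.

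Insr encodes the insulin receptor, at chr8:3150922-3279649 of GRCm38.p6, the RefSeq assembly that corresponds to the mm10 build of the submitters. Its lowest, median and highest log2 signals were 12.71, 13.34 and 14.17 in cre mice, against 12.20, 13.06 and 13.60 in wt mice. The highest mouse was cre mouse 4 and the lowest wt mouse 5, and 6 of 10 cre mice lay above the wt mean. The difference was 0.25 with a standard error of 0.20 (adjusted p = 0.848). In batch 1 it was 0.07 and in batch 2 it was 0.44, and the difference between batches was 0.36 with an adjusted p of 0.857.

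Irs1 (chr1:82233105-82291439) encodes the first described docking protein of the receptor. Its signals were 6.89, 7.59 and 8.05 in cre mice, lowest, median and highest, and 6.64, 7.70 and 8.54 in wt mice. The cre mice lay inside the range of the wt mice. The difference was -0.12 with a standard error of 0.25 (adjusted p = 0.949), and it was -0.08 in batch 1 and -0.15 in batch 2. Irs2 (chr8:10984681-11008929) encodes a second such protein, which serves the liver and the beta cell as well. It stood at 9.92, 10.82 and 11.49 in cre mice, against 9.61, 11.11 and 11.91 in wt mice. The wt mice spanned the wider range here too, with wt mouse 6 the lowest, and the difference was -0.13 with a standard error of 0.28 (adjusted p = 0.947). By batch it was -0.22 and -0.05.

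The promoters of the 2 substrate genes are shown because both hold elements known for control by nutrients and insulin, and because Irs1 is 1 of the 2 genes that moved with Adgre1. Each run covers 250 bases before and 50 after the RefSeq start in GRCm38.p6, 5′ to 3′ on the strand of the gene, here the minus strand, at chr1:82291390-82291689 for Irs1 and chr8:11008880-11009179 for Irs2. Capitals mark the E-box CACGTG and the core of the insulin response element, TGTTTTG, to which FOXO proteins bind. Both were searched on both strands.
Irs1: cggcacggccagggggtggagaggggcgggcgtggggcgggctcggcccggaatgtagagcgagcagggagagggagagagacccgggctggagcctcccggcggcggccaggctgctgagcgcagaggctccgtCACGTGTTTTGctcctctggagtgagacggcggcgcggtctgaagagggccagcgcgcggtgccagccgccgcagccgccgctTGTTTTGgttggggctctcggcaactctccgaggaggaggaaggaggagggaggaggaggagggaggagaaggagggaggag
Irs2: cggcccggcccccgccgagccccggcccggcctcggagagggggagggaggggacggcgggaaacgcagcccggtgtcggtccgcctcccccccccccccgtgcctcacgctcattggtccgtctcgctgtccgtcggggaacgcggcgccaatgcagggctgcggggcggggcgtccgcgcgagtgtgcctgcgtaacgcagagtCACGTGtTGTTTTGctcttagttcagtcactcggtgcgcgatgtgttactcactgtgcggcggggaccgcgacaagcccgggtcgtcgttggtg
In Irs1 the E-box runs into the first of 2 insulin response elements, so that the 2 matches overlap, and in Irs2 a single base parts them. Of 32851 mouse promoters of this length, 7.15% held CACGTG, 6.28% held TGTTTTG and 0.408% held both. None of the other promoters listed for the 10 genes held either. The motifs were chosen after the sequences were seen, and a match of letters is not a bound site.

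Pik3r1 (chr13:101680761-101768217) encodes p85α, the regulatory subunit that brings phosphatidylinositol 3-kinase to the IRS proteins. Its signals were 12.26, 13.65 and 14.10 in cre mice, against 12.82, 13.27 and 13.82 in wt mice. The cre mice enclosed the wt mice, with cre mouse 6 the lowest and cre mouse 5 the highest of all. The difference was 0.14 with a standard error of 0.21 (adjusted p = 0.919). Its sign was not the same in both batches: in batch 1 cre mice averaged 13.55 ± 0.44 and wt mice 13.11 ± 0.23, and in batch 2 cre mice averaged 13.29 ± 0.67 and wt mice 13.46 ± 0.42 (SD, n = 5 each). A test of that change between batches gave -0.60 with a standard error of 0.40 (adjusted p = 0.766). Akt2 (chr7:27591552-27640826), the AKT kinase gene tied to glucose uptake, had signals of 11.96, 12.53 and 12.90 in cre mice and 10.56, 12.41 and 12.88 in wt mice. Only wt mice 6, 5 and 9 lay below the lowest cre mouse. The difference was 0.23 with a standard error of 0.24 (adjusted p = 0.881), at 0.01 in batch 1 and 0.46 in batch 2. Without wt mice 5 and 6, a setting chosen after the values were seen, it was -0.06.

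Slc2a4 (chr11:69942286-69948216) encodes GLUT4, and it varied most among the 10 genes, by 7.44-fold between the lowest and the highest mouse. Its signals were 8.60, 9.55 and 10.55 in cre mice, against 7.86, 9.78 and 10.76 in wt mice. The means were 9.60 ± 0.66 in cre mice and 9.60 ± 1.04 in wt mice (SD, n = 10 each). The difference was 0.01 with a 95% interval of -0.74 to 0.75 (adjusted p = 0.998), an interval that also holds differences of well over 1.5-fold either way. Without wt mice 5 and 6, the 2 lowest at 7.87 and 7.86, it was -0.43 (adjusted p = 0.929). Tbc1d4 (chr14:101442360-101609281) encodes AS160, which holds GLUT4 vesicles inside the cell until AKT acts on it. Its signals were 10.95, 11.22 and 11.44 in cre mice, against 10.13, 11.06 and 11.34 in wt mice. All 10 cre mice lay above the wt mean, and wt mice 6 and 9 were the lowest of all at 10.13 and 10.25. The difference was 0.30 with a 95% interval of -0.01 to 0.61 (unadjusted p = 0.0575, adjusted p = 0.801), and it was 0.28 in batch 1 and 0.32 in batch 2. It was the gene with the smallest p of the 10 and the smallest range, 2.49-fold over all mice.

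Foxo1 (chr3:52268337-52350109) encodes the factor that AKT keeps out of the nucleus. It stood at 8.22, 9.20 and 9.53 in cre mice, against 8.35, 9.31 and 9.68 in wt mice. The ranges nearly coincided, and the difference was -0.18 with a standard error of 0.19 (adjusted p = 0.888), at -0.18 in batch 1 and -0.17 in batch 2. Grb10 (chr11:11930499-12037428) encodes an adaptor that binds the receptor and restrains it. Its signals were 9.30, 9.88 and 10.58 in cre mice, against 8.91, 9.82 and 10.75 in wt mice, so that the cre mice lay inside the wt range. The difference was -0.03 with a standard error of 0.20 (adjusted p = 0.983), and it was -0.28 in batch 1 and 0.23 in batch 2. Ptpn1 (chr2:167930750-167979385) encodes PTP1B, the phosphatase that takes phosphate off the insulin receptor. It had signals of 10.69, 11.75 and 12.37 in cre mice, against 11.22, 11.53 and 12.70 in wt mice. Cre mouse 9 was the lowest and wt mouse 9 the highest. Cre mice 9, 5 and 10 lay below all wt mice, wt mice 9 and 5 above all cre mice, and the others overlapped. The difference was -0.19 with a standard error of 0.23 (adjusted p = 0.894), at -0.48 in batch 1 and 0.10 in batch 2, and the change between batches was 0.58 (adjusted p = 0.793).

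Across mice, 2 of the 10 genes moved with Adgre1 in opposite directions: Ptpn1 was higher and Irs1 lower where Adgre1 was higher. The slope of each gene on the log2 signal of Adgre1 was fitted with genotype and batch in the model. Of all probe sets 8.82% passed adjustment in this fit, 6.26% with a positive and 2.57% with a negative slope, so 2 of 10 genes is a share not far from what the array as a whole shows. The median slope of the 10 genes was -0.14, against -0.02 over all probe sets.

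Ptpn1 had 10.69 in the cre mouse with the lowest Adgre1, 12.37 in the cre mouse with the highest, and 12.55 in the wt mouse with the highest Adgre1. Its slope was 0.47 log2 units per log2 unit of Adgre1 with a standard error of 0.08 (adjusted p = 0.000703). With the means of genotype and batch taken out, Pearson's r over 20 mice was 0.82 (permutation p = 0.00031) and Spearman's rho 0.84 (permutation p = 0.00011). Without wt mouse 5 and cre mouse 3, the 2 mice furthest from the median of Adgre1 once those means were taken out, r was 0.77. The relation was seen in each genotype, with r = 0.75 in cre mice (permutation p = 0.0272) and 0.88 in wt mice (permutation p = 0.00557), and in each batch, with r = 0.80 and 0.87. With each mouse left out in turn, the slope stayed between 0.43 and 0.53 and past the threshold. A separate fit of batch 2, with its 10 mice, gave 0.58 but missed it (adjusted p = 0.296). At an equal mean of the adipocyte genes the slope was 0.49 (adjusted p = 0.00218), so the relation was as large with that mean in the fit.

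The promoter of Ptpn1 is shown as that of the gene with the strongest relation to Adgre1. It lies on the plus strand at chr2:167932077-167932376 of GRCm38.p6, and capitals mark the GC box GGGCGG on either strand, the usual site of SP1.
Ptpn1: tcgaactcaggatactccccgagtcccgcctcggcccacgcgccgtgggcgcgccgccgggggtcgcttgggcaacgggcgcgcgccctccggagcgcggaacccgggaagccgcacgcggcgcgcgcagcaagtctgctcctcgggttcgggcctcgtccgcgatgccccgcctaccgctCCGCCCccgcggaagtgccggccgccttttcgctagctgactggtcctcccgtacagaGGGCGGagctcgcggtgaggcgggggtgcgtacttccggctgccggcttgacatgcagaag
GC boxes are common: 35.7% of all promoters of this length held one, and so did at least 1 promoter of each of the 8 genes listed. Foxo1 and Grb10 each had a promoter with 5 matches, against 2 in Ptpn1. In the Irs1 and Irs2 promoters above they are left in lower case. The Ptpn1 run held neither CACGTG nor TGTTTTG, and of its bases 74.0% were G or C.

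Irs1 fell with Adgre1: it stood at 8.05 in the cre mouse with the lowest Adgre1 and 6.84 in the wt mouse with the highest. Its slope was -0.45 with a standard error of 0.11 (adjusted p = 0.0137), and r was -0.70 (permutation p = 0.00274) with a rho of -0.67 (permutation p = 0.0038). Without wt mouse 5 and cre mouse 3, r was -0.61. It was -0.78 in cre mice (permutation p = 0.0411) and -0.71 in wt mice (permutation p = 0.0437). By batch the relation was uneven, with r = -0.88 in batch 1 (permutation p = 0.00168) and -0.32 in batch 2 (permutation p = 0.386). The call rested on wt mouse 5, the mouse with the highest Adgre1 of all: without it the slope was -0.44 and the adjusted p 0.0636. With the mean of 20 macrophage genes in place of Adgre1, the slope was -0.55 (adjusted p = 0.00446).

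Slc2a4 missed the threshold, with a slope of -0.49 and a standard error of 0.18 (adjusted p = 0.0995). Its r was -0.56 (permutation p = 0.0169) and its rho -0.60 (permutation p = 0.00983). Without wt mouse 5 and cre mouse 3, r was -0.36. It was -0.79 in batch 1 (permutation p = 0.00795) and -0.18 in batch 2 (permutation p = 0.624). The call turned with the setting. Without wt mouse 6, which had the lowest adipocyte mean and the high seminal vesicle genes, the slope was -0.60 (adjusted p = 0.00393). With that mouse kept, Slc2a4 passed with the mean of 20 macrophage genes in place of Adgre1 at -0.67 (adjusted p = 0.0281). It also passed with array weights at -0.61 (adjusted p = 0.0065). In batch 1 alone, which does not hold that mouse, the slope was -0.64 (adjusted p = 0.0178), and in batch 2 alone it was -0.25 (adjusted p = 0.916). Without the 5 mice set apart by genes of other tissues it was -0.71 (adjusted p = 0.00928). At an equal mean of the adipocyte genes it was -0.11 (adjusted p = 0.662). That mean itself ran against Adgre1, with r = -0.91 in cre mice (permutation p = 0.0013) and -0.41 in wt mice (permutation p = 0.258), and its part in the Slc2a4 relation was not tested further. For the other 7 genes the slopes lay between -0.19 for Insr (adjusted p = 0.336) and 0.02 for Grb10 (adjusted p = 0.94). Insr ran with r = -0.85 in batch 1 and 0.19 in batch 2. No slope differed between cre and wt mice past adjustment (adjusted p = 0.995 for Irs1 and for Ptpn1).

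**Figure D2:**
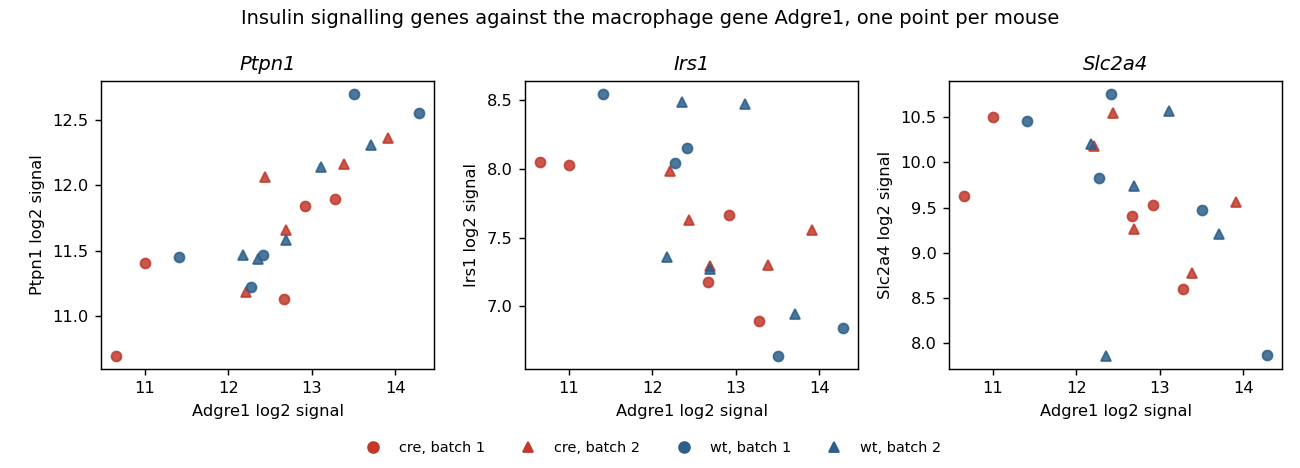
Log2 signal of Ptpn1, Irs1 and Slc2a4 (y axes) against that of Adgre1 (x axes), one point per mouse, coloured by genotype and shaped by batch. Ptpn1 climbs with Adgre1 among cre and among wt mice, Irs1 falls, and in the Slc2a4 panel wt mouse 6 lies apart at 7.86.

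Tnf differed between the genotypes by design, so its relation to the 10 genes was read within genotypes only. None of the 10 slopes on Tnf passed adjustment, as was so for all probe sets (0%), and 2 had an unadjusted p under 0.05, against 12.7% of all probe sets. These were again Ptpn1, with a slope of 0.69 and a standard error of 0.15 (unadjusted p = 0.000219, adjusted p = 0.108), and Irs1, with -0.60 and a standard error of 0.20 (unadjusted p = 0.00705, adjusted p = 0.226). In wt mice Ptpn1 followed Tnf with r = 0.93 (permutation p = 0.00192) and rho = 0.92 (permutation p = 0.00126), and r was 0.95 without the 2 wt mice with the most extreme Tnf. The 4 wt mice with the highest Tnf, mice 5, 2, 9 and 10, were also the 4 with the highest Ptpn1. In cre mice r was 0.48 (permutation p = 0.186) and rho 0.22. The Tnf signals of all cre mice lay below the array medians, as did those of wt mice 1, 3, 6, 7 and 8. The SD of Tnf was 0.43 in cre mice, against 0.69 in wt mice. The slope of Ptpn1 on Tnf did not pass a test of a difference between genotypes (unadjusted p = 0.829). Irs1 ran against Tnf in wt mice with r = -0.70 (permutation p = 0.0488) and rho = -0.72 (permutation p = 0.045), and r was -0.51 without the 2 extreme wt mice. In cre mice r was -0.19 (permutation p = 0.532). In wt mice Tnf and Adgre1 themselves moved together, with r = 0.91 (permutation p = 0.00189), against 0.20 in cre mice (permutation p = 0.52). With Adgre1 in the model the slopes on Tnf were 0.36 for Ptpn1 (adjusted p = 0.908) and -0.27 for Irs1 (adjusted p = 0.956). The 20 relations to Adgre1 and Tnf were all computed, and their permutation p-values are unadjusted; the adjusted values are those of the slopes.

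**Figure D3:**
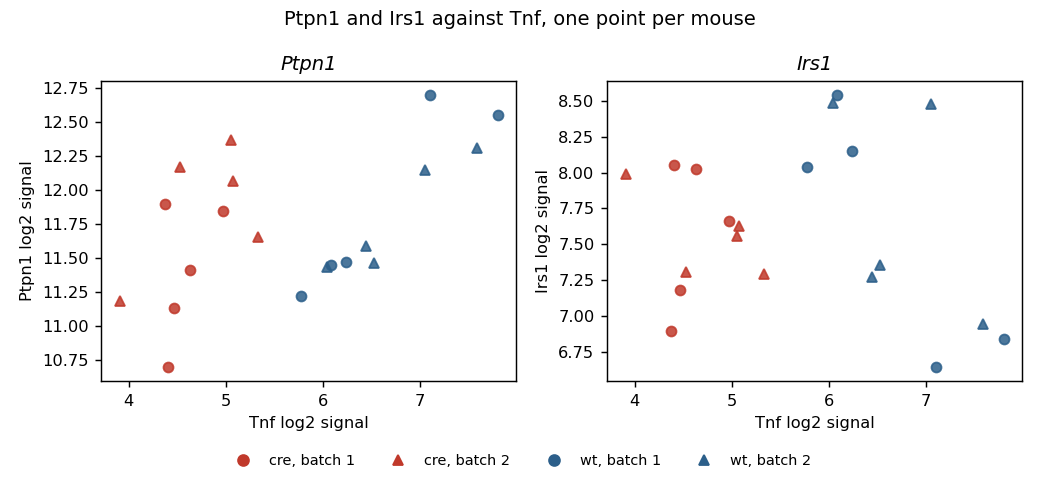
Log2 signal of Ptpn1 and Irs1 (y axes) against that of Tnf (x axes), one point per mouse, coloured by genotype and shaped by batch. The cre mice lie at a Tnf signal of 5.34 or less and the wt mice at 5.78 or more; among wt mice the 4 highest in Tnf are the 4 highest in Ptpn1.

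A further measure was added after the values were seen, the mean of the 16 adipocyte genes, because wt mice 5 and 6 were low both in it and in several of the 10 genes. Positive slopes were thus partly built into its choice, so the calls below describe these mice and do not test the 10 genes. In this fit 4 of the 10 genes passed adjustment, all with a positive slope, against 7.48% of all probe sets, 4.29% with a positive and 3.19% with a negative slope. Slc2a4 had a slope of 1.24 with a standard error of 0.15 (adjusted p = 1.47e-05) and an r of 0.89, and without wt mice 5 and 6 the slope was 1.60 (adjusted p = 0.00624). Akt2 had 0.75 with a standard error of 0.13 (adjusted p = 0.00066), Foxo1 0.48 with 0.13 (adjusted p = 0.0183) and Insr 0.47 with 0.14 (adjusted p = 0.036). Without wt mice 5 and 6 these 3 lost the call, at 0.48, 0.43 and 0.51 (adjusted p = 0.403, 0.476 and 0.421). The call of Insr was also lost on leaving out any 1 of 8 mice, cre mouse 3 and wt mice 1, 3, 4, 5, 6, 7 and 10, with adjusted p-values of up to 0.136, and that of Foxo1 without wt mouse 6 (adjusted p = 0.147). Without the 5 mice set apart by genes of other tissues, Akt2, Foxo1 and Insr all lost the call (adjusted p = 0.125, 0.385 and 0.218). Fitted by batch, Akt2 lost it in batch 1 (adjusted p = 0.151) and Insr in batch 2 (adjusted p = 0.612), and Foxo1 in both (adjusted p = 0.247 and 0.121). Irs2 lay just outside the threshold at 0.64 (adjusted p = 0.0517), and inside it without wt mice 5 and 6, at 1.38 (adjusted p = 0.0384). It was inside the threshold too without cre mouse 9 or wt mouse 2, 5 or 9, taken out 1 at a time, with adjusted p-values of 0.0114 to 0.0499.

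**Figure D4:**
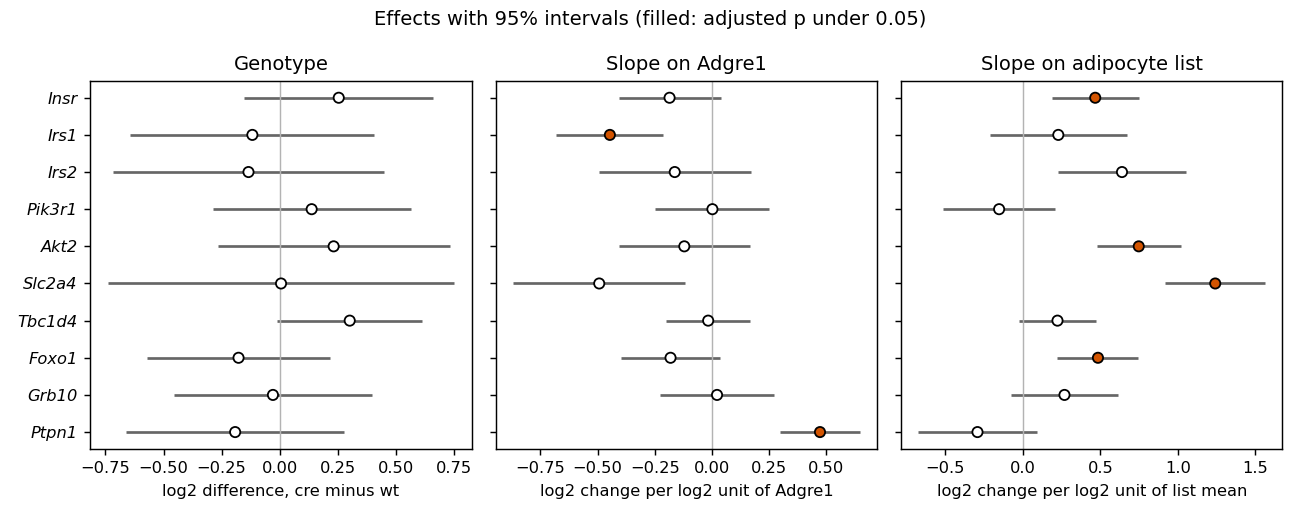
Effect (points) and 95% interval (lines) for each of the 10 genes: the log2 difference cre minus wt (left), the slope on Adgre1 (middle) and the slope on the adipocyte mean (right), the slopes in log2 units per log2 unit. Filled points passed an adjusted p of 0.05: none by genotype, Irs1 and Ptpn1 for Adgre1, and Insr, Akt2, Slc2a4 and Foxo1 for the adipocyte mean. The adipocyte mean was chosen after these genes were seen to be low in the same mice.

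The 10 genes did not vary as one block. With the means of genotype and batch taken out, 14 of the 45 pairs had an r above 0.5 over 20 mice, and 12 had one without wt mice 5 and 6. These were not all the same pairs. The share of all gene pairs on the array with such an r was not computed, so neither count is set against a background. Without the 2 mice, Akt2 and Foxo1 went from 0.71 to 0.39, and Irs1 and Tbc1d4 from 0.04 to 0.66. By r over 20 mice, the closest pair was the receptor and the transporter. Insr and Slc2a4 had r = 0.79 (permutation p = 0.00023) and rho = 0.74 (permutation p = 0.00131), and r was 0.64 without wt mice 5 and 6. Without those mice the closest pair was Irs1 and Slc2a4, with r = 0.75, against 0.45 over 20 mice. Akt2 and Slc2a4 had r = 0.74 (permutation p = 0.00316) and rho = 0.63 (permutation p = 0.00884), but 0.40 without wt mice 5 and 6. Foxo1 and Grb10 had r = 0.69 (permutation p = 0.00329) and rho = 0.71 (permutation p = 0.00123), and 0.68 without those mice. The most negative pair over 20 mice was Irs1 and Ptpn1, with r = -0.61 (permutation p = 0.0203) and rho = -0.66 (permutation p = 0.0112). Without wt mice 5 and 6 its r was -0.52, and the most negative pair was Pik3r1 and Slc2a4 at -0.58. Pik3r1 stood apart, with r between -0.42 and -0.08 to each of the other 9 genes. These p-values are not adjusted for the 45 pairs.

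**Figure D5:**
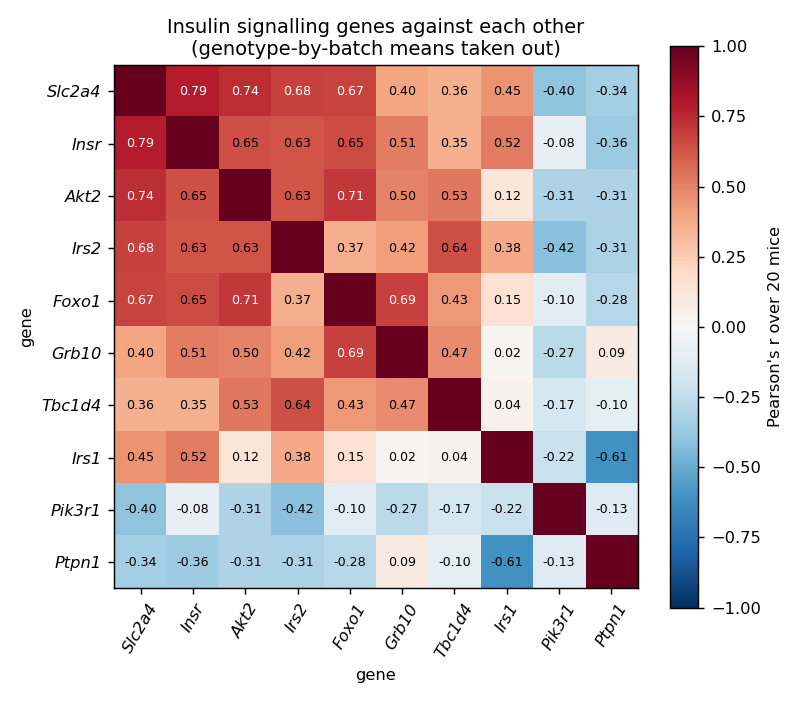
Pearson's r over 20 mice between each pair of the 10 genes (both axes), with the means of genotype and batch taken out; red is positive and blue negative. With wt mice 5 and 6 included, Slc2a4, Insr, Akt2, Irs2 and Foxo1 form the red corner, palest between Irs2 and Foxo1 at 0.37. Pik3r1 and Ptpn1 are pale or blue against most others.

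Of all named genes on the array, those whose pattern over 20 mice was most like each gene of the pathway were looked up by r, with the same means taken out. Slc2a4 was closest to Mcam at r = 0.94, Lipe at 0.93 and Sfrp5 at 0.93, and Lipe, the hormone-sensitive lipase gene, is a member of the adipocyte list. Akt2 was closest to Tmem120a at 0.93, Trarg1, a regulator of GLUT4 traffic, at 0.93 and Mest at 0.92. Insr was closest to Gramd4 at 0.92, Cry2 at 0.90 and Fzd4 at 0.88. Irs2 was closest to Irs3, another substrate of the receptor in rodents, at 0.89, then Zfp423 at 0.86 and Dtx2 at 0.86. Ptpn1 was closest to Naip5 at 0.90, Coro1a, an actin regulator of leukocytes, at 0.88 and Tbc1d2b at 0.88. For Irs1 they were Cenpv at 0.82, Vmn2r79 at 0.80 and Klhl11 at 0.80, and for Foxo1 Tapt1 at 0.89, Ptms at 0.89 and Phldb1 at 0.85. Grb10 had Fn1 at 0.86, Setd1a at 0.85 and F13a1 at 0.84. The lowest top values were those of Pik3r1, with Tax1bp1 at 0.82, Zfp825 at 0.81 and Rbm26 at 0.81, of Irs1, and of Tbc1d4, with Lama4 at 0.81, Sipa1 at 0.79 and Icam5 at 0.79.

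Around these 10 genes, 100 further genes of insulin signalling were measured in 6 lists: partners of the receptor, the kinase chain to AKT and mTOR, negative regulators, kinases linked to insulin resistance, GLUT4 traffic, and outputs of the pathway. None of the 100 differed between genotypes past adjustment, and 10 had an unadjusted p under 0.05, a share of 10.0% against 6.29% of all probe sets. Of these 6 were positive, cre minus wt, and 4 negative, and each had an adjusted p of 0.77 or more. Grb14, a receptor inhibitor akin to Grb10, had the largest difference at 1.37 with a standard error of 0.42 (unadjusted p = 0.00359). The lipase inhibitor gene G0s2 had 0.82, the coactivator gene Ppargc1a 0.67, the phosphatase gene Ptpn11 0.49, the caveolin gene Cav1 0.47 and Rictor, of the mTOR complex that acts on AKT, 0.27. Negative differences were those of the vesicle fusion genes Vamp8 at -0.50 and Vamp2 at -0.41, the lipid phosphatase gene Inppl1 at -0.37 and the glucose transporter gene Slc2a3 at -0.32.

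Against Adgre1, 18 of the 100 passed adjustment, 12 with a positive and 6 with a negative slope, and the median slope was 0.05. That is 18.0%, against 8.82% of all probe sets, 6.26% with a positive and 2.57% with a negative slope and a median of -0.02. Of the positive genes, Inpp5d and Pik3cd are best known from white blood cells. Inpp5d, the lipid phosphatase SHIP1 of blood cells, had a slope of 0.84 with a standard error of 0.09 (adjusted p = 1.52e-06), and Pik3cd, the leukocyte form of the kinase subunit, had 0.58 with 0.10 (adjusted p = 0.000629). In GLUT4 traffic, 5 of 31 had a positive slope past adjustment, led by Cbl at 0.60 and Lrp1 at 0.50, and 2 a negative one, Sort1, which sorts GLUT4 into its vesicles, at -0.43 and Rhoq at -0.25. Among partners of the receptor 3 of 10 passed, all positive, led by Dok1 at 0.39 and Grb2 at 0.27. In the kinase chain Akt1 was positive at 0.35, while Eif4ebp1, a target of mTOR, had -0.58 and Pik3r3 -0.28. Prkcd was the only 1 of 10 resistance kinases to pass, at 0.55. Ptpn11 had -0.31, and of the outputs only Pde3b, the phosphodiesterase by which insulin restrains lipolysis, passed, at -0.51. The count of 18 rested in part on single mice: it was 9 without wt mouse 5 and 29 without wt mouse 6. The share of all probe sets that passed in those fits was not taken.

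Against Tnf, none of the 100 passed adjustment and 17 had an unadjusted p under 0.05, a share of 17.0% against 12.7% of all probe sets. Against the adipocyte mean, 16 had a positive and 4 a negative slope past adjustment, against 4.29% and 3.19% of all probe sets. The 18 outputs of the pathway held 6 of the positive ones. Named after their values were seen, these included Pnpla2, the lipase ATGL, at 1.24, Pde3b at 1.10, hexokinase Hk2 at 0.88 and glycogen synthase Gys1 at 0.82. The 4 negative slopes were those of Rab4a, a GTPase gene of endosome recycling, at -1.04, the ubiquitous glucose transporter gene Slc2a1 at -0.74, Doc2b, a gene of vesicle fusion, at -0.69 and Akt1 at -0.50.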

How the data were processed

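Total RNA of epididymal fat was amplified, biotinylated and hybridised to expression arrays (labels' protocols). The values deposited by the authors are on the log2 scale, 1 per probe set and array; per the submitters' processing notes RMA and Transcriptome Analysis Console 4.0.2.15 were used with the mm10 build. RMA usually makes array distributions alike, so a shift common to nearly all genes is removed, and low signals hold background. Background settings and any adjustment for batch are not given in the sources used here. The number of arrays limits the precision.

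Group, batch and replicate number came from the sample titles, and each mouse is a biological replicate. Of 22206 probe sets, 19572 had 1 symbol, 0 several and 2634 none here; the GRCm38.p6 gene table of RefSeq held all 19572, and the probe set with the highest mean stood for a gene. Of 110 entries in the 6 pathway lists, 100 were measured.

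All probe sets were fitted with limma 3.58.1 in R 4.3.3 (lmFit, eBayes without trend) with genotype and batch, plus Adgre1, Tnf or the adipocyte mean for slopes, leaving out the probe sets of the measure itself. P-values were adjusted by Benjamini-Hochberg over all probe sets at 0.05. For r and rho the means of the 4 genotype-by-batch cells were taken out and values permuted within cells, 100000 times, two-sided; p-values cannot go below 1e-05. Python 3.11.15, NumPy 2.4.6, SciPy 1.17.1, pandas 2.3.3 and matplotlib 3.10.9 were used, and the fits were tested on simulated data.

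The genes, lists, tests and naming rule were chosen with earlier results of these data known. The 10 genes are always named; of each list, up to 3 genes with the smallest p under 0.05 by genotype, and up to 2 in each direction past adjustment for Adgre1; and the 3 genes most like each of the 10. Alternatives were no batch term, single batches, the replicate number as a block, filtering, renormalization, centring, other priors, array weights, cell type covariates, leaving out each mouse, and leaving out the 5 mice whose mean of an other-tissue list lay over 1 log2 unit above all others of their genotype, which kept 7 cre and 8 wt mice. Promoters came from RefSeq, which listed 8 of the 10 genes.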

Additional observations from a re-analysis of the deposited data

How the results depend on the processing

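Of 1184 recomputed values, 1052 kept direction and side of the threshold and 60 changed sign. The threshold was lost by 29 and gained by 18, and 25 counts moved by over 1.5 times. The cause was not tested. Shares over all probe sets were taken for the main fits only. The counts of genes in the alternatives below, single batches among them, therefore cannot be set against the array as a whole. With the genotype-by-batch mean of each probe set taken out, the deviations of same-numbered mice correlated between -0.30 and 0.34, with 4 of 10 pairs over 0.1. Whole arrays, with no mean taken out, correlated at 0.93 to 0.99 over all pairs of mice. For 4 of 10 cre mice the same-numbered wt mouse was the most alike in these deviations of the 5 wt mice in the batch. Whether replicate numbers pair the mice was not tested. With the replicate block, 1 of the 10 genes passed for Adgre1, with Irs1 at -0.40 (adjusted p = 0.14), 7 pathway genes passed, 1 gene had an unadjusted p under 0.05 for Tnf, and Pik3r1 and Grb10 had slopes on Adgre1 of -0.0695 and -0.0794. The block changed no other call except those of Insr and Foxo1, lost, and of Irs2, gained, for the adipocyte mean.

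By genotype, no alternative called a gene. Genes with an unadjusted p under 0.05 numbered 1 after renewed quantile normalization, 2 with the adipocyte mean as a covariate, 1 without wt mice 5 and 6, and 0 to 1 with single mice left out. Differences of the other sign were, for Slc2a4, -0.42 with the adipocyte and -0.29 with the macrophage mean, -0.25 with array weights, -0.14 in batch 1 and -0.43 without wt mice 5 and 6; for Akt2, -0.0261 with the adipocyte mean and -0.0605 without those mice; in batch 2, -0.16 for Pik3r1, 0.23 for Grb10 and 0.10 for Ptpn1; for Ptpn1, 0.025 with the macrophage mean; and for Irs1, 0.0139 without the 5 mice high in other-tissue genes. With single mice left out, Slc2a4 ran from -0.20 to 0.14 and Grb10 from -0.16 to 0.0693.

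For Adgre1, 4 genes passed in batch 1, 0 in batch 2, 1 without wt mice 5 and 6, 1 to 3 with single mice left out, and 3, Slc2a4 added, with array weights, with the macrophage mean in place of Adgre1 and without the 5 mice high in other-tissue genes. Of pathway genes 0 passed in batch 2 and 9 to 29 with single mice left out. Slopes of the other sign were 0.0604, -0.062, 0.16 and 0.0738 for Irs2, Pik3r1, Akt2 and Tbc1d4 with the adipocyte mean; -0.0695 for Pik3r1 and -0.070 for Grb10 in batch 1; 0.13, 0.0080, 0.21 and 0.0574 for Insr, Akt2, Tbc1d4 and Foxo1 in batch 2; -0.0441 for Pik3r1 and -0.0203 for Grb10 after quantile normalization; and for Grb10 -0.0119 with array weights, -0.0435 with the macrophage mean in place of Adgre1 and -0.10 without wt mice 5 and 6. With single mice left out, Pik3r1 ran from -0.035 to 0.0724, Tbc1d4 from -0.0916 to 0.036 and Grb10 from -0.0391 to 0.11.

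For Tnf, 1 gene passed with array weights, Ptpn1 at 0.66 (adjusted p = 0.0455). Genes with an unadjusted p under 0.05 numbered 5 in batch 1, 1 in batch 2, 4 without the 5 mice high in other-tissue genes, 1 with Adgre1 as a covariate, 1 without wt mice 5 and 6, and 2 to 4 with single mice left out. For the adipocyte mean, which like the setting without wt mice 5 and 6 was chosen after seeing the data, 2 genes passed with Adgre1 as a covariate, Slc2a4 and Akt2. The count was 3 in each batch and without the 5 mice high in other-tissue genes, and 4 without wt mice 5 and 6, but not of the same genes: only Slc2a4 passed in each of these fits, Irs2 gained the call in batch 2 and without wt mice 5 and 6, and the calls lost are given with the slopes.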
